A study of Mus musculus with 2 samples.

Results

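The genes described here encode the channel through which newly made secretory and membrane proteins enter the endoplasmic reticulum (ER), together with its partner complexes. The 10 genes were Sec61a1, Sec61b, Sec61g, Sec62, Sec63, Ssr1, Ssr2, Ssr3, Ssr4 and Spcs1. They were chosen by symbol from the 32285 genes of the count tables, by what they encode and not by a limit on their values. Expression was measured in the dendritic cells (DC) of the spleen by scRNA-seq, which counts RNA molecules cell by cell. DC are the cells that take up antigen and present it to T cells. One group was WT (H2-Aa +/+) and the other H2-Aa cit/cit, which carries the citation allele that the labels describe as H2-Aa deficient. H2-Aa encodes the alpha chain of the MHC class II molecule I-A. Each group was a single library made from 3 pooled female mice that were 4 months old and naive, and the WT mice were littermates. Cells were enriched with a kit that selects CD11c+ cells and were then sorted as live CD45.2+ CD11c+ cells, so the libraries can hold any CD11c+ cell of the spleen and are not limited to DC. With 1 library per genotype there was no replicate error. No test was made, and all intervals given are 95% intervals that cover counting error alone.

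A ribosome that makes a secretory protein is brought to the ER by the signal recognition particle (SRP), and the growing chain is passed through the Sec61 channel. The channel is built from the products of Sec61a1, which forms the pore, and of the small subunits Sec61b and Sec61g. Sec62 and Sec63 are partner proteins of the channel, and Sec63 recruits the lumenal chaperone BiP, the product of Hspa5. Ssr1 to Ssr4 encode the subunits of the translocon-associated protein (TRAP) complex, which binds beside the channel and aids some signal sequences. Spcs1 is a subunit of the signal peptidase complex, which removes signal peptides. In DC the Sec61 channel has also been discussed as a route by which antigen leaves the phagosome or ER for the cytosol during cross-presentation. Many genes of ER entry are known targets of the unfolded protein response, whose factors XBP1 and ATF6 bind sequences with the core CCACG.

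Promoter sequence was at hand from RefSeq (GRCm38.p6) for 8 of the 10 genes, all but Sec61a1 and Ssr2. Both strands of the 250 bases before each start site were searched for 4 motifs. The bare core CCACG, which each of the other motifs holds, was found in 4 of the 8 genes and in 31.0% of 27025 genes with such a sequence. The 7 letters GCCACGT, which hold the core CCACG, were found in the same 4 genes and in 2.33% of all genes (2.02% of 32851 promoters). The longer ER stress response elements ERSE and ERSE-II, which hold the same core beside a CCAAT box, were found in none of the 8 genes and in 0.13% and 0.037% of all genes. The sequences are shown because the genes that hold GCCACGT and the genes that lack it can be set beside the ratios below. They run 5′ to 3′ on the strand of the gene, and capitals mark GCCACGT. Ssr3 (chr3:65392554-65392803, minus strand) holds it 191 bases before the start. Ssr1 (chr13:37994209-37994458, minus strand) holds it 74 and 27 bases before the start. Sec63 (chr10:42761246-42761495, plus strand) holds it 23 bases and Spcs1 (chr14:31001667-31001916, minus strand) 61 bases before the start. Ssr4 (chrX:73786773-73787022, plus strand) and Sec62 (chr3:30792626-30792875, plus strand) lack it, and so do Sec61b and Sec61g, whose sequences are not printed.
Ssr3: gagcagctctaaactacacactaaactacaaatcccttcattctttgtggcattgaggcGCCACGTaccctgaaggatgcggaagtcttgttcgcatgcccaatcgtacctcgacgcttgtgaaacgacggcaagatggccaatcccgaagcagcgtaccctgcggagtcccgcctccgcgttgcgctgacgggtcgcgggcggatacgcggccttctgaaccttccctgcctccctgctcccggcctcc
Ssr1: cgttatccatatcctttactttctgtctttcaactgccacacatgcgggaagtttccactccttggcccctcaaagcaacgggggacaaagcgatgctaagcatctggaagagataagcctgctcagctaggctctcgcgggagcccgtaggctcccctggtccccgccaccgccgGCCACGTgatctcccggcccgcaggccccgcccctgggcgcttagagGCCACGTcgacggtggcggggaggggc
Sec63: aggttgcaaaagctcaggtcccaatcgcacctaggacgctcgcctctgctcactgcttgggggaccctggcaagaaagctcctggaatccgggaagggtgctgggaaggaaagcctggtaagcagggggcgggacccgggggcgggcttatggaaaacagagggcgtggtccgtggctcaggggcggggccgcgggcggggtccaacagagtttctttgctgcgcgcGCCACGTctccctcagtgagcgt
Spcs1: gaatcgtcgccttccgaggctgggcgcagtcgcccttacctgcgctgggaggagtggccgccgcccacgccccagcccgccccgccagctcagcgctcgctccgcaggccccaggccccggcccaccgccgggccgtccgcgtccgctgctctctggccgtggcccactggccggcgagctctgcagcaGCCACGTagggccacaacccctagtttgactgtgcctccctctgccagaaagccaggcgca
Ssr4: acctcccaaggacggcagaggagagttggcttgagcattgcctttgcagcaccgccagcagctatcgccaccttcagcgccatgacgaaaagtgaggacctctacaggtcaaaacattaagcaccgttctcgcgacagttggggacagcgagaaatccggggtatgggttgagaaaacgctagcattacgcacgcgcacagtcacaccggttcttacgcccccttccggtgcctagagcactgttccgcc
Sec62: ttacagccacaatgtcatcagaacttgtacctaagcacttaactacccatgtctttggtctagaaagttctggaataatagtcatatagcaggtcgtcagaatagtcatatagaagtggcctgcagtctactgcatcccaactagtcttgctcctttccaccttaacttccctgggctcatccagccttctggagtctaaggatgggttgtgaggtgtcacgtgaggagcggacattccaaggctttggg

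The WT library held 7814 cells with 51020804 unique molecular identifiers (UMIs, 1 per captured RNA molecule). There were 11525 cells with 72652201 UMIs in the other library. H2-Aa itself was at 5409.7 CPM (UMIs of a gene per 1000000 UMIs of the cells summed) in WT and at 66.2 CPM in the H2-Aa cit/cit library, a log2 ratio of −6.35 that goes with the labels. The DC genes Itgax (199 and 224 CPM), Flt3 (422 and 333 CPM) and Zbtb46 (273 and 265 CPM) were present in both libraries. A total of 31 barcodes occurred in both libraries. Cells were put into classes by their UMIs of marker genes that do not include any of the 10 genes. The limits were set after the marker distributions had been seen, and the names end in "-like" for that reason. The cDC1-like cells (Xcr1, Clec9a, Cadm1 and 4 further markers) numbered 546 in WT against 707 in H2-Aa cit/cit, and 434 cells of all lay within 20% of this limit. Resting cDC2-like cells, which joined a Ccr2+ group, an Ffar2-high group and other cells with cDC2 markers, numbered 1988 and 5289. Mature DC-like cells (Ccr7, Fscn1, Socs2 and 5 further markers) numbered 2038 and 1352. pDC-like cells, plasmacytoid DC with Siglech, Klk1, Ccr9, Ly6d and Pacsin1, numbered 104 and 108. Proliferating cells numbered 296 and 603, Wdfy4-high cells 1801 and 2316, and monocyte-like cells 143 and 177. The Wdfy4-high class was gated by Gm15261, Adgrl3, Ctnnd2 and Immp2l, without Wdfy4 itself, and by a ribosomal share under 10%. Its marker limits were passed by 9980 cells. Resting cDC2-like cells had a median of 26.9 of these marker UMIs per 10000 against a limit of 20, so the ribosomal limit also set this class apart. The monocyte limits were passed by 338 cells. Of all cells, 280 lay within 20% of the monocyte limit of 8 marker UMIs per 10000, on either side of it. The median of the monocyte-like class was 17.6 marker UMIs per 10000. The gate markers differ between the classes by construction, so their levels describe the gates and do not test them. In WT and H2-Aa cit/cit respectively, Xcr1 was at 345 and 371 CPM in cDC1-like cells. It was at 2.29 and 3.10 CPM in resting cDC2-like cells. Siglech was at 2889 and 2339 CPM in pDC-like cells, and Ccr7 at 936 and 861 CPM in mature DC-like cells.

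Over all cells the 10 genes summed to 1276 CPM (95% interval 1266 to 1285) in WT against 2046 CPM (2036 to 2057) in H2-Aa cit/cit. By class, the sum was 1393 CPM in WT against 1973 CPM in H2-Aa cit/cit resting cDC2-like cells, and 1988 and 3673 CPM in cDC1-like cells. In mature DC-like cells it was 922 and 1324 CPM. In pDC-like cells it was 2508 CPM (2414 to 2604) in WT against 2476 CPM (2366 to 2590.1) in H2-Aa cit/cit, and these intervals overlap. The sum was thus higher in H2-Aa cit/cit cells in each of the 3 classes of conventional DC, and in pDC-like cells the summed levels differed by less than the counting error. A gene was counted as higher when its CPM was at least 1.2-fold that of the WT cells of its class. Over all cells, 9 of the 10 genes were higher by this rule, against 18% of 6532 other genes with a mean of at least 20 CPM. The median log2 ratio of the 10 genes was 0.69 over all cells, and the median of the other genes was 0.01. The mixture of classes differed between the libraries. Resting cDC2-like cells made up 25.4% of the WT and 45.9% of the H2-Aa cit/cit library, and mature DC-like cells 26.1% and 11.7%. The part of this mixture in the values over all cells was not tested. In resting cDC2-like cells, 7 of 10 were higher against 6.87% of other genes. In cDC1-like cells, 9 of 10 were higher against 19.6%. In mature DC-like cells, 8 of 10 were higher against 24.4%. In pDC-like cells, 0 of 10 were higher against 20.1%. None of the 10 was at least 1.2-fold lower over all cells (against 17.4% of other genes) or in resting cDC2-like (7.69%), cDC1-like (25.2%), mature DC-like (13.8%) or pDC-like cells (20.5%). The median log2 ratios of the 10 genes were 0.58, 0.77, 0.54 and −0.03 in these 4 classes, and those of all other genes −0.02, −0.05, 0.07 and −0.00.

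**Figure D1:**
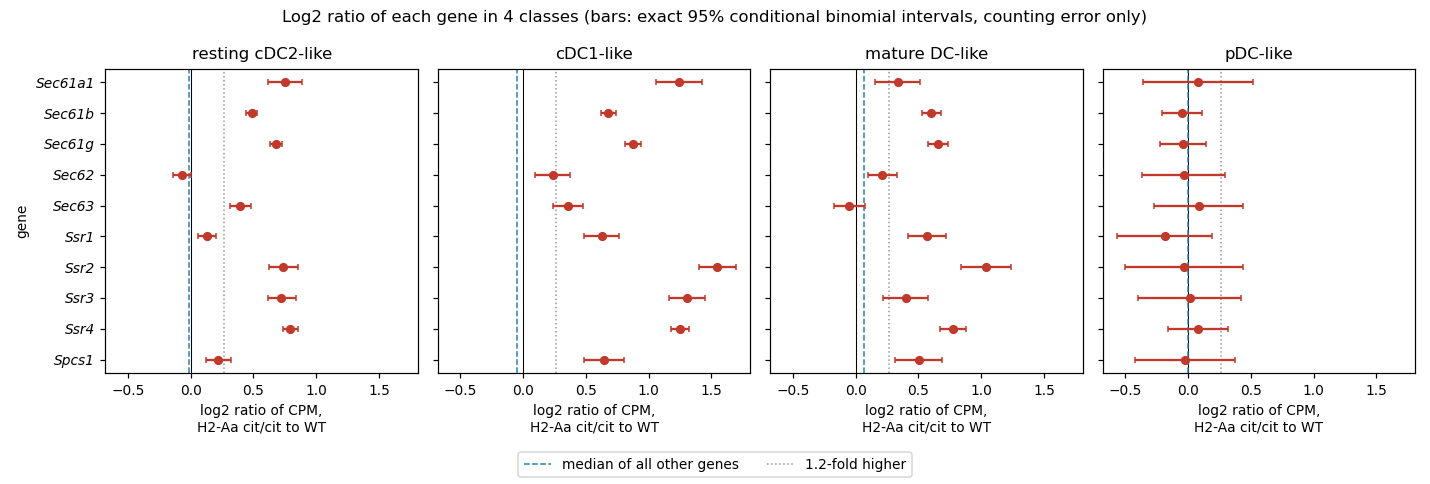
Log2 ratio of CPM between the H2-Aa cit/cit and the WT library (x axis) for each of the 10 genes (y axis) in 4 classes of cells, with 1 panel per class. Points are ratios of summed UMIs, bars are 95% conditional binomial intervals for counting error, the dashed line is the median of all other genes of at least 20 CPM, and the dotted line marks 1.2-fold. With cells of all depths, the cDC1-like points lie farthest to the right for every gene but Sec63, up to 1.55 for Ssr2. All pDC-like bars cross 0.

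The 3 subunits of the channel were all higher in the conventional DC classes. Sec61a1 (chr6:88503579-88518905, minus strand), the pore subunit, was at 35.6 CPM (32.8 to 38.7) in WT against 59.9 CPM (57.5 to 62.4) in H2-Aa cit/cit resting cDC2-like cells, a log2 ratio of 0.75 (0.62 to 0.88). In cDC1-like cells it was at 53.3 and 126 CPM, a ratio of 1.24 (1.06 to 1.42). The difference was smaller in mature DC-like cells, with 41.5 and 52.3 CPM and a ratio of 0.33 (0.15 to 0.52) that was below 1.2-fold with clusters in place of gates (0.17) and with doubled limits (0.26). In pDC-like cells the levels were 98.2 CPM (80.3 to 119) and 104 CPM (82.4 to 129). The WT level in pDC-like cells was therefore above that of any conventional DC class in WT, and its interval just overlapped the cDC1-like interval (119 to 133 CPM) of the H2-Aa cit/cit library. Sec61b (chr4:47474658-47483242, plus strand) encodes the beta subunit, which has a single membrane span. It was at 369 and 516 CPM in resting cDC2-like cells and at 529 and 846 CPM in cDC1-like cells, with log2 ratios of 0.49 (0.44 to 0.53) and 0.68 (0.62 to 0.74). In pDC-like cells it was at 757 and 732 CPM. Sec61g (chr11:16500530-16508484, minus strand), the gamma subunit, had ratios of 0.68 (0.63 to 0.73) in resting cDC2-like, 0.87 (0.81 to 0.94) in cDC1-like and 0.66 (0.58 to 0.74) in mature DC-like cells. Its level in pDC-like cells was 550 CPM in WT against 535 CPM in H2-Aa cit/cit. Both small subunits have transcripts of other loci that share stretches of 90 identical bases with the last 400 bases of their own transcripts. Of these loci only Gm10320, which matches Sec61b, was in the count table, at 0.57 and 1.38 CPM over all cells.

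Sec62 and Sec63, the partners of the channel, went apart from the channel and from each other. Sec62 (chr3:30792875-30821263, plus strand) was at 145 CPM (139 to 151) in WT against 138 CPM (134 to 142) in H2-Aa cit/cit resting cDC2-like cells. The log2 ratio was −0.07 (−0.14 to −0.00), and Sec62 was the only one of the 10 genes that was not above WT in this class. It was under 1.2-fold in either direction under each of 11 alternative settings there. In cDC1-like cells it was at 109.6 and 129 CPM, a ratio of 0.23 (0.10 to 0.37), which lies below 1.2-fold. Sec62 was the one gene that did not reach 1.2-fold over all cells, with 122 and 132 CPM. Sec63 (chr10:42761496-42832514, plus strand) was at 98.9 and 129.9 CPM in resting cDC2-like cells, a ratio of 0.39 (0.31 to 0.48), and at 145 and 185 CPM in cDC1-like cells, a ratio of 0.36 (0.24 to 0.48). The difference between these 2 ratios was −0.04 (−0.18 to 0.11). With cells of all depths, Sec63 was the only gene whose ratio was not larger in cDC1-like than in resting cDC2-like cells. Among mature DC-like cells Sec63 was at 107 and 104 CPM, with an interval of the log2 ratio from −0.17 to 0.07.

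Of the TRAP genes, Ssr2, Ssr3 and Ssr4 had the 3 largest ratios of the 10 in cDC1-like cells. The intervals of all 3 overlapped that of Sec61a1 (log2 ratio 1.24, 1.06 to 1.42). In cDC1-like cells of 5000 to 10000 UMIs the log2 ratios of Ssr2, Ssr3 and Ssr4 were 0.91, 0.61 and 0.55, below the 1.30 of Sec61a1. Ssr2 (chr3:88575876-88588419, plus strand), the beta subunit, was at 77.3 CPM (70.4 to 84.8) in WT against 226 CPM (216 to 236) in H2-Aa cit/cit cDC1-like cells, which is 2.92-fold (2.64 to 3.24). Among mature DC-like cells it was at 26.5 and 54.4 CPM, which is 2.06-fold (1.79 to 2.36), and in resting cDC2-like cells at 46.9 and 78.2 CPM, which is 1.67-fold (1.54 to 1.81). The ratio was the largest of the 10 in cDC1-like and in mature DC-like cells. Ssr3 (chr3:65379655-65392623, minus strand), the gamma subunit, was at 84.9 and 209.6 CPM in cDC1-like cells, which is 2.47-fold (2.24 to 2.73). Ssr4 (chrX:73787028-73790830, plus strand), the delta subunit, was at 349 CPM (334 to 365) and 830.4 CPM (812 to 849) in cDC1-like cells, which is 2.38-fold (2.26 to 2.50). It was at 184 and 319 CPM in resting cDC2-like cells and at 103 and 176 CPM in mature DC-like cells. In pDC-like cells Ssr4 was at 313 and 331 CPM. The WT cDC1-like and pDC-like levels of Ssr4 thus lay close to each other, and the H2-Aa cit/cit level was higher in cDC1-like than in pDC-like cells, with intervals that did not overlap. Ssr1 (chr13:37966605-37994217, minus strand), the alpha subunit, stood apart from the other TRAP genes in resting cDC2-like cells, at 128 CPM (123 to 134) and 140.2 CPM (136 to 144), a log2 ratio of 0.13 (0.06 to 0.20). In cDC1-like cells it was at 102.4 and 158 CPM, a ratio of 0.62 (0.49 to 0.76), and in mature DC-like cells at 53.7 and 79.9 CPM, a ratio of 0.57 (0.42 to 0.72).

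Spcs1 (chr14:30999826-31001672, minus strand), the signal peptidase subunit, was at 66.7 and 77.7 CPM in resting cDC2-like cells. The ratio of 0.22 (0.12 to 0.32) was under 1.2-fold but reached it in 1 of 11 alternatives. Spcs1 was at 78.0 and 122 CPM in cDC1-like cells, a ratio of 0.65 (0.49 to 0.81), and at 37.3 and 52.7 CPM in mature DC-like cells, a ratio of 0.50 (0.31 to 0.69). Spcs1 overlaps the start of Glt8d1 on the other strand, which was at 11.4 and 13.3 CPM over all cells. The genes with GCCACGT in the 250 bases before the start had resting cDC2-like ratios from 0.13 (Ssr1) to 0.72 (Ssr3), and those without it from −0.07 (Sec62) to 0.79 (Ssr4). In cDC1-like cells the ranges were 0.36 (Sec63) to 1.30 (Ssr3) and 0.23 (Sec62) to 1.25 (Ssr4). The ranges of the 4 genes with the motif and the 4 without it overlapped.

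**Figure D2:**
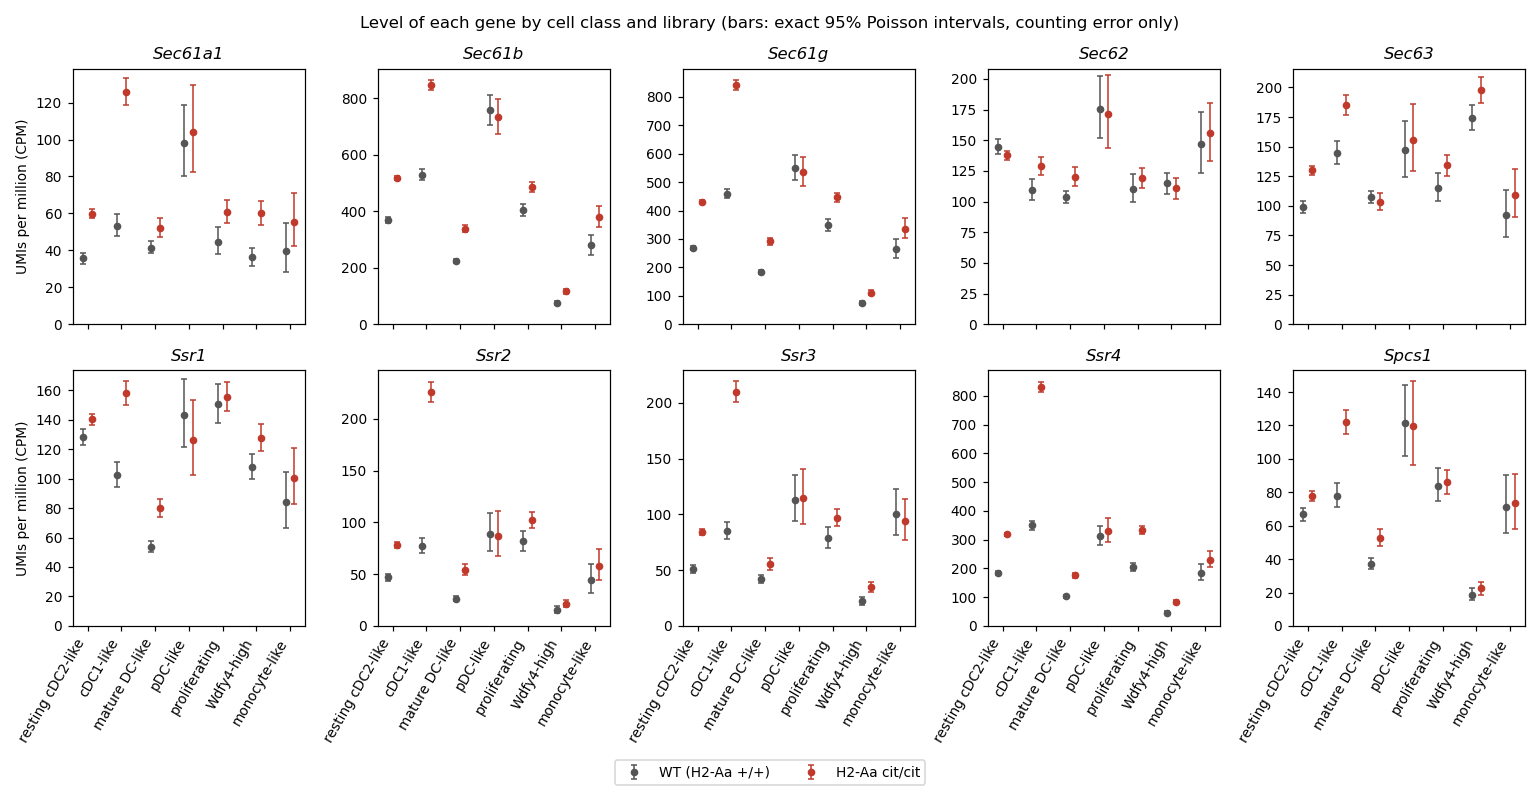
Level of each of the 10 genes (1 panel per gene) in 7 cell classes (x axis) in CPM of the class (y axis, from 0) for the WT and the H2-Aa cit/cit library. Points are summed UMIs and bars are 95% Poisson intervals for counting error. The H2-Aa cit/cit point of cDC1-like cells is the highest for 8 of the 10 genes, and the WT and H2-Aa cit/cit intervals of pDC-like cells overlap for every gene.

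The order of the classes differed between the libraries. This order was read for the 10 genes only, so the counts below have no share of all genes beside them. In WT cells the pDC-like class had the highest level of 7 of the 10 genes among 7 classes. The exceptions were Ssr1 (151 CPM in proliferating cells), Ssr4 (349 CPM in cDC1-like cells) and Sec63 (174 CPM in Wdfy4-high cells). The intervals of the first and second class overlapped for all 3 of these, with the pDC-like class second, and also for Sec62 and Ssr3 (pDC-like, then monocyte-like cells) and Ssr2 (pDC-like, then proliferating cells). They were apart for Sec61a1, Sec61b, Sec61g and Spcs1. In H2-Aa cit/cit cells the cDC1-like class had the highest level of 8 of the 10 genes. The exceptions were Sec62, which was highest in pDC-like cells (171 CPM), and Sec63, which was highest in Wdfy4-high cells (198 CPM). The intervals of the first and second class overlapped for these 2 genes and for Sec61a1, Ssr1 and Spcs1, and were apart for Sec61b, Sec61g, Ssr2, Ssr3 and Ssr4. The lowest level was that of Wdfy4-high cells for 6 genes in WT and for 7 in H2-Aa cit/cit. The Wdfy4-high cells had a median depth of 2894 UMIs in WT and 2220 UMIs in H2-Aa cit/cit. Their median ribosomal share was 3.30% and 4.47%, and the part of both in these low levels was not tested.

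The ratios in the conventional DC classes were set against those in pDC-like cells. Differences between classes were computed for the 10 genes only, so no share over all genes stands beside the counts below. These differences used cells of all depths. The median depth of cDC1-like cells was 8728.5 UMIs in WT against 13662 UMIs in H2-Aa cit/cit. The log2 ratio was larger in cDC1-like than in pDC-like cells by more than the counting error for 8 of the 10 genes, all but Sec62 and Sec63. The differences of these 8 ran from 0.67 (0.26 to 1.09) for Spcs1 to 1.58 (1.10 to 2.05) for Ssr2. For resting cDC2-like against pDC-like cells the interval of the difference lay above 0 for 6 genes, all of the channel plus Ssr2, Ssr3 and Ssr4. For mature DC-like against pDC-like cells the interval also lay above 0 for 6 genes. The pDC-like class was small, and its widest interval, that of Ssr2, ran from −0.50 to 0.44. A ratio as large as that of resting cDC2-like cells lay outside the pDC-like interval for Sec61a1, Sec61b, Sec61g, Ssr2, Ssr3 and Ssr4. Between cDC1-like and resting cDC2-like cells of all depths the ratio was larger in cDC1-like cells for 9 genes. The gap was widest for Ssr2 (0.81, 0.62 to 0.99) and narrowest for Sec61b (0.19, 0.12 to 0.26). Not every gene kept this order in cDC1-like cells of 5000 to 10000 UMIs. Sec61b and Ssr4 were at 0.37 and 0.55 there, below their lowest resting cDC2-like ratios under any setting, 0.40 and 0.62. For Sec61a1, Sec62, Ssr1, Ssr2 and Spcs1 the lowest cDC1-like ratio under any setting lay above the highest resting cDC2-like ratio. For Sec61g and Ssr3 the ranges over the settings overlapped.

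In the proliferating, Wdfy4-high and monocyte-like cells and in the groups within classes described next, none of the 10 genes was at least 1.2-fold lower. In proliferating cells 6 of 10 genes were at least 1.2-fold higher, against 13.3% of all other genes (13.5% lower), and the median log2 ratio was 0.28. Proliferating cells with cDC1 markers (61 in WT, 58 in H2-Aa cit/cit) had a median of 0.65 with 7 of 10 higher against 22% of other genes (22.5% lower), and those without (235 and 545 cells) had a median of 0.25 with 4 of 10 higher against 13.1% (17.5% lower). Ssr4 was at 305 and 683 CPM in the former and at 157 and 261 CPM in the latter. In Wdfy4-high cells 6 of 10 genes were higher against 14.6% (10% lower), with a median of 0.51. Of the 10 genes, Ssr2 was under the mean of 20 CPM there, at 15.7 and 21.4 CPM. In monocyte-like cells 5 of 10 were higher against 19.7% (27.4% lower), with a median of 0.29, and the interval was above 0 for 3 genes (Sec61b, Sec61g and Ssr4). Within the cDC2-like cells the median log2 ratio was 0.44 in the Ccr2+ group with 7 of 10 higher against 9.97% (9.57% lower), 0.60 in the Ffar2-high group with 7 of 10 higher against 7.92% (7.74% lower), and 0.59 in the remaining cells with 8 of 10 higher against 15.7% (19.6% lower). Ssr4 was at 271 and 386 CPM in the Ccr2+ group and at 155 and 284 CPM in the Ffar2-high group. The Ccr2+ group thus had the higher WT level and the smaller ratio of Ssr4. Mature DC-like cells with no UMI of a cDC1 marker (1428 in WT, 1205 in H2-Aa cit/cit) had a median of 0.50 with 8 of 10 higher against 16.9% (12.3% lower). In those with at least 2 such UMIs (367 and 58 cells) it was 0.87 with 9 of 10 higher, against 40.9% of all other genes (23.5% lower) in that small group, where Ssr2 was at 3.50-fold (2.48 to 4.88).

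The difference was also read cell by cell. Each cell was thinned to 1500 UMIs, so that the same number was read per cell, and the UMIs of the 10 genes were added up per cell. Thinning does not match the cells by their original depth. The median depth of cDC1-like cells was 8728.5 UMIs in WT and 13662 UMIs in H2-Aa cit/cit. In cDC1-like cells the median was 2 UMIs in 540 WT cells against 5 UMIs in 704 H2-Aa cit/cit cells. The upper quartile of WT cells was 4 UMIs and the lower quartile of H2-Aa cit/cit cells was 3 UMIs. The share of cDC1-like cells above 5 UMIs, the 90th percentile of WT, was 9.44% in WT against 43.0% in H2-Aa cit/cit. In resting cDC2-like cells the median was 2 and 3 UMIs, and 7.15% and 19.0% of cells were above the 90th percentile of WT, which was 4 UMIs. The mean was 1.31 and 1.83 UMIs in mature DC-like cells. In pDC-like cells it was 4.01 and 3.36 UMIs, while their summed CPM was nearly the same in both libraries, so no order is read from the means per cell. The median depth of pDC-like cells was 9983.5 UMIs in WT against 7182.5 UMIs in H2-Aa cit/cit. Why the reading per cell was lower than that of the sums was not tested. The share of cDC1-like cells with at least 1 UMI of Ssr4 was 36.9% (32.8 to 41.1) in WT and 61.1% (57.4 to 64.7) in H2-Aa cit/cit after thinning, and 79.7% and 90.9% before. For Ssr2 it was 10.9% (8.42 to 13.9) and 25.6% (22.4 to 29.0) after thinning. In pDC-like cells the thinned share with Ssr4 was 33.7% and 34.6%, whereas that with Sec61b was 74.0% (64.5 to 82.1) in WT and lower, 54.2% (44.3 to 63.9), in the other library, against 90.4% and 80.6% before. The intervals of the thinned shares overlapped for the other 9 genes in this class. No class of cells lacks these genes, so a background share could not be read. Too shallow for this were 6 WT and 3 H2-Aa cit/cit cells of the cDC1-like class.

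**Figure D3:**
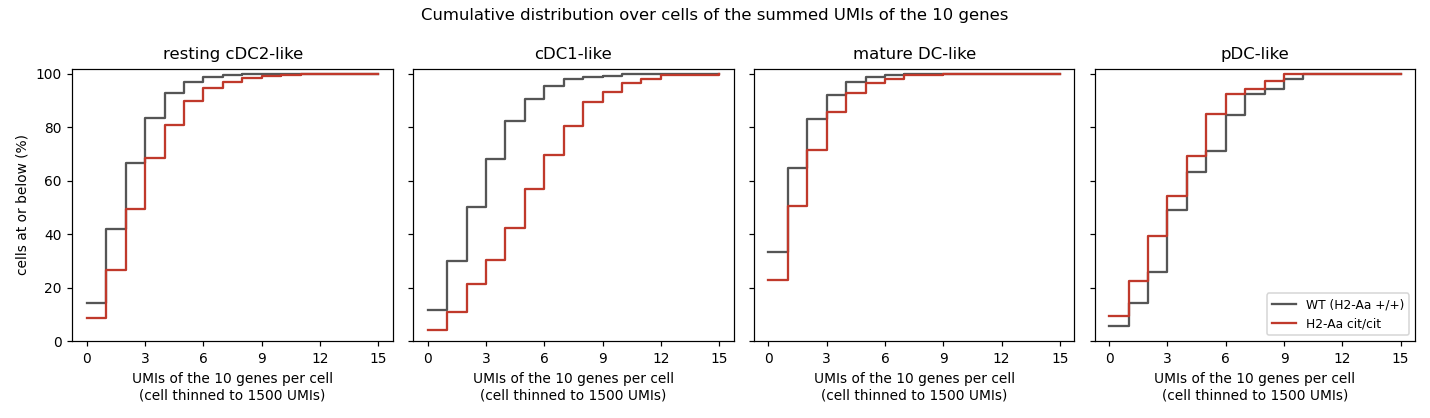
Cumulative share of cells (y axis, in percent) by the summed UMIs of the 10 genes per cell (x axis) after each cell was thinned to 1500 UMIs, for WT and H2-Aa cit/cit cells of 4 classes. In cDC1-like cells the H2-Aa cit/cit curve lies well to the right, with 43.0% of cells above the WT 90th percentile against 9.44% of WT cells, and in pDC-like cells it does not. The cells were not matched by their depth before thinning.

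Depth and cell mixture moved with some of these results. The median depth of cDC1-like cells was 8728.5 UMIs in WT against 13662 UMIs in H2-Aa cit/cit. In cDC1-like cells of 5000 to 10000 UMIs (134 WT and 120 H2-Aa cit/cit cells) the ratios of Ssr4, Ssr3 and Ssr2 were 0.55, 0.61 and 0.91 in place of 1.25, 1.30 and 1.55, and those of Sec61b and Sec61g 0.37 and 0.58 in place of 0.68 and 0.87. Sec61a1 was at 1.30 there. The median of the 10 genes was 0.58, no larger than the 0.58 of resting cDC2-like cells of all depths. Of all other genes, 44.3% were then at least 1.2-fold higher in these cDC1-like cells, and their median was 0.20. The part of depth in the cDC1-like ratios was not tested further. In the 1 unsupervised cluster that held most cDC1-like cells (301 of WT, 569 of H2-Aa cit/cit), the median was 0.83 and the ratios of Ssr4, Ssr3 and Ssr2 were 1.38, 1.33 and 1.52. Another cluster, with a median ribosomal share of 35.9% of UMIs, held 24.9% of the WT and 4.10% of the H2-Aa cit/cit cDC1-like cells. Of the resting cDC2-like cells, 33.3% in WT against 38.1% in H2-Aa cit/cit lay in 1 cluster, in which the median ratio was 0.48. A further 17.0% and 20.2% lay in a cluster named macrophage, since C1qa, C1qb and C1qc were among its 100 leading genes. The cDC2 marker Cd209a was among its first 10. Over all resting cDC2-like cells these 3 complement genes were at 0.75 to 1.92 CPM. Of the mature DC-like cells, 45.4% and 56.2% lay in 1 cluster, in which the median was 0.40 with 6 of 10 genes higher, against 10.9% of other genes. The ratio of Ssr1 was 0.17 and that of Spcs1 0.18 in that cluster, both under 1.2-fold. Another cluster held 21.3% of the WT mature DC-like cells but 1.78% of the H2-Aa cit/cit ones. The median ribosomal share of mature DC-like cells was 8.46% of UMIs in WT against 11.0% in H2-Aa cit/cit. The part of ribosomal share in the result was not tested.

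Plasma cells are rich in these genes, and their 7 markers were read in each class. Cells past limits on NK, neutrophil lineage, macrophage, monocyte, or lymphoid and plasma cell markers were set aside before conventional DC classes were filled. The last of these gates held Jchain, Igha, Igkc, Tnfrsf17 and Sdc1, with limits of 20 UMIs and 30 per 10000. Levels of gated markers in the conventional DC classes were thus limited by the gates and are no independent reading of such cells. Over all cells all 7 had UMIs in both libraries, with a sum of 275 CPM in WT against 55.7 CPM in H2-Aa cit/cit. In cDC1-like cells the sum was 5.67 and 132 CPM, of which Derl3, a gene of ER-associated degradation, made 1.55 and 129.5 CPM. The sum of Jchain, Igha, Igkc, Tnfrsf17 and Sdc1 was 4.12 CPM in WT against 1.59 CPM in H2-Aa cit/cit cDC1-like cells, with Sdc1 at 0 in both and Igha at 0 in H2-Aa cit/cit. Mzb1 was at 0 and 0.85 CPM. In resting cDC2-like cells the sum of all 7 was 5.57 and 21.5 CPM, of which Derl3 made 0.56 and 19.6 CPM and Mzb1 0.31 and 0.52 CPM, and the sum of the other 5 was 4.70 and 1.43 CPM. It was 238 and 189.6 CPM in pDC-like cells, of which Igkc made 228 and 187 CPM. The sum of all 7 was 8.24 and 11.0 CPM in mature DC-like cells. Other lists also moved with the mature DC-like class: the NK markers summed to 46.1 and 93.1 CPM, the monocyte markers to 95.1 and 158 CPM, the neutrophil lineage markers to 2.45 and 11.0 CPM and the macrophage markers to 119 and 68.5 CPM. Over all cells the neutrophil lineage markers summed to 78.1 and 368 CPM. The 7 macrophage markers summed to 35.1 and 98.8 CPM in cDC1-like cells, of which the heme oxygenase gene Hmox1 made 17.5 and 86.6 CPM. The complement genes C1qa, C1qb and C1qc, which made up the macrophage gate, were at 0.85 to 2.58 CPM in the cDC1-like cells of both libraries. The part of other cell types in the results was not tested.

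An unsupervised clustering of both libraries gave 24 clusters, and 1 of them held 538 H2-Aa cit/cit cells and no WT cell. Its leading genes were Cox6a2, Nupr1, Atf5, Trib3, Sdf2l1, Ddit3, Krtcap2, Chchd10, Derl3 and Hspa5, several of which belong to the ER and integrated stress responses, and it was left without a name. Ssr4 was at 576 CPM, Sec61b at 831 CPM, Sec61g at 771 CPM and Ssr2 at 163 CPM in these cells, and Sec62 was at 159.6 CPM. Each of the 10 genes was above its level in the H2-Aa cit/cit resting cDC2-like cells. The clustering used 2000 variable genes, and it was not read whether any of the 10 was among them. The resting cDC2-like class also held cells of this cluster, and other genes were not compared in this way, so this is a description. Without that cluster 4815 H2-Aa cit/cit cells were left in the resting cDC2-like class, and its median ratio was 0.48 in place of 0.58.

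Other genes of entry into the ER were read from a list of 43 genes, of which 41 were found by symbol. In resting cDC2-like cells 27 of them had a mean of at least 20 CPM, and 10 of the 27 were at least 1.2-fold higher and 0 lower, against the 6.87% of all genes given above. All 4 of the other signal peptidase genes and 4 of 5 SRP genes were higher. None of 7 genes of the ER membrane complex (EMC), 4 of the multipass translocon and 3 of tail-anchor insertion was higher. The 4 with the highest ratio among genes of at least 50 CPM were Hspa5, Spcs2, Sec11c and Sec11a. Hspa5, which encodes the chaperone BiP, was at 249.98 CPM in WT against 897 CPM in H2-Aa cit/cit, a log2 ratio of 1.84. Spcs2, a partner of Spcs1 in signal peptidase, was at 104 and 196 CPM (0.91), and the catalytic subunits Sec11c and Sec11a had ratios of 0.51 and 0.50. The 4 lowest were Ccdc47 of the multipass translocon (−0.19), Emc2 of the EMC (−0.14), the BiP cochaperone Dnajc1 (0.02) and Srp14 of the SRP (0.07). Among cDC1-like cells 28 of the 30 genes of at least 20 CPM were higher, against 19.6% of all genes, and every group held some of them. These cells were of all depths, with a median of 8728.5 UMIs in WT against 13662 UMIs in H2-Aa cit/cit. The ER entry list was not read in cDC1-like cells of matched depth. Among mature DC-like cells 17 of 24 were higher (against 24.4%) and 1 lower (13.8%). In pDC-like cells 5 of 32 were higher (20.1%) and 11 lower (20.5%), with a median log2 ratio of −0.09. Among genes with a mean of at least 20 CPM, those past 1.2-fold in resting cDC2-like cells belonged to the SRP, signal peptidase and other translocon groups. Those in cDC1-like cells came from all 7 groups. The contrast for the SRP receptor rests on these limits. In resting cDC2-like cells its gene Srpr had a ratio of 0.26, just under 1.2-fold. Srprb was at 0.68 (0.46 to 0.91), but its levels of 12.7 and 20.5 CPM were under the mean of 20 CPM.

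**Figure D4:**
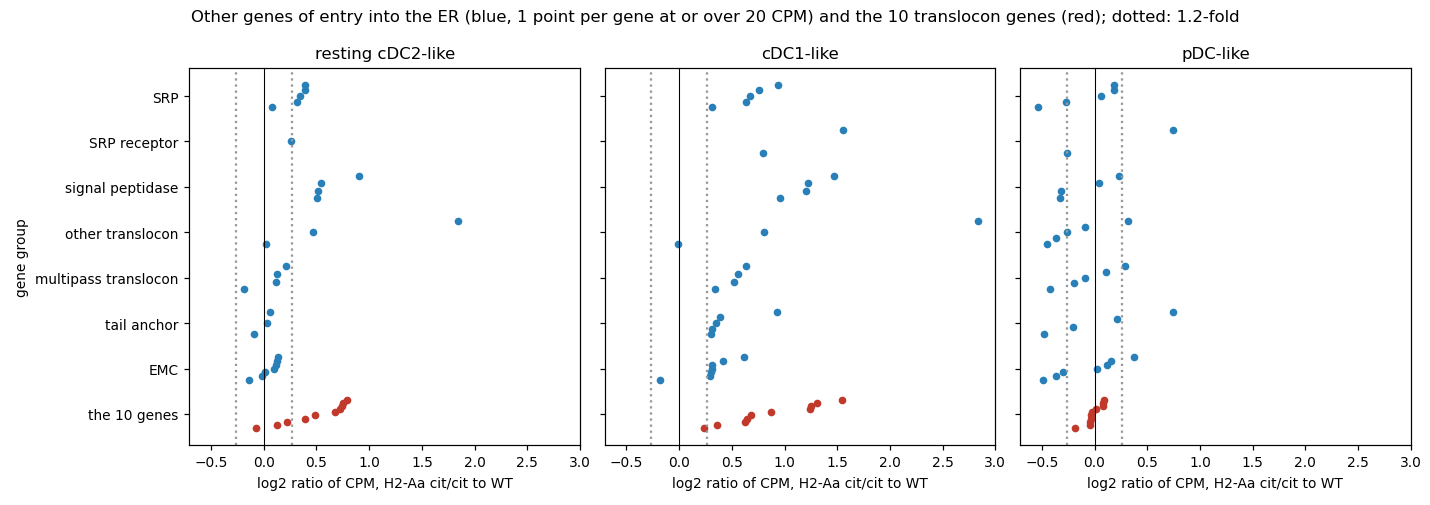
Log2 ratio of CPM between H2-Aa cit/cit and WT (x axis) for the genes of other ER entry groups (blue) and for the 10 genes (red), by group (y axis), in resting cDC2-like, cDC1-like and pDC-like cells. Each point is 1 gene with a mean of at least 20 CPM, and dotted lines mark 1.2-fold. Hspa5 is the point farthest to the right in resting cDC2-like cells, at 1.84, and the groups other than SRP, signal peptidase and other translocon lie within 1.2-fold of 0 there.

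The 10 genes did not share 1 pattern. Over 14 sums (7 classes in each library), the log2 CPM of pairs of the 10 genes had Pearson correlations from −0.16 (Sec63 with Spcs1) to 0.99 (Sec61b with Sec61g), with a median of 0.56 over 45 pairs. Sec61b, Sec61g, Ssr2, Ssr3, Ssr4 and Spcs1 correlated with each other at 0.90 or above, and Sec62, Sec63 and Ssr1 with none of these above 0.59. The sums share libraries and their depth, so the correlations are descriptions. Among 3845 genes with a mean of at least 50 CPM, the 5 whose levels were most like the mean of the 10 were Cope (r = 0.99), Spcs2 (0.99), Ufc1 (0.98), Krtcap2 (0.98) and Tmem258 (0.98). Cope encodes a subunit of the COPI coat of transport vesicles, Ufc1 the conjugating enzyme for the modifier UFM1, and Krtcap2 and Tmem258 subunits of the oligosaccharyltransferase, which adds glycans to proteins in the ER. Krtcap2 was at 121 and 583 CPM in cDC1-like cells and at 269 and 295 CPM in pDC-like cells. Cope was at 98.5 and 225 CPM in cDC1-like cells and at 137 and 134 CPM in pDC-like cells.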

How the data were processed

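One library of splenic DC per genotype was measured by 3′ droplet scRNA-seq. The authors deposited UMI counts that were not normalized. Their processing notes name Cell Ranger 5.0.1 and the build mm10, which is GRCm38. The gene annotation is not given in the sources used here. The 10 genes, the gene lists and the comparisons were chosen with earlier results of these data known.

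UMIs were summed per class and library and scaled to CPM of the class. Ratios have exact conditional binomial (Clopper-Pearson) and levels exact Poisson 95% intervals, and differences of log2 ratios a normal approximation. All of them cover counting error only. The ratio step was tested on simulated data. Cells needed at least 1000 UMIs to be put in a class, which 472 WT cells and 402 cells of the H2-Aa cit/cit library did not reach, while 295 and 488 cells matched no class. Markers per class were fixed, and a class needed a minimum number of marker UMIs and of marker UMIs per 10000. The cDC1 limits were 3 UMIs and 5 per 10000, the pDC limits 5 and 15, and the mature limits 5 and 12. Wdfy4-high cells also had under 10% ribosomal UMIs. Doublets were not removed. Named genes were the 10 genes, H2-Aa, the 4 highest and 4 lowest of the ER entry list in resting cDC2-like cells and the 5 most similar genes. Derl3, Hmox1 and the leading genes of the cluster with no WT cell were named after their values were seen. Alternatives were other scalings and denominators, means over cells, no minimum level, mitochondrial and doublet filters, clusters and doubled limits. Clusters came from scanpy 1.11.5 (2000 variable genes, 30 components, Leiden resolution 1) without integration, in Python 3.11.15 with scipy 1.17.1. Positions are from GENCODE vM21 (GRCm38), and all 10 genes matched by identifier.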

Additional observations from a re-analysis of the deposited data

Results flagged for a closer look

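In 9 cases, not counting the monocyte-like class, a gene had ratios of opposite sign in 2 classes. In monocyte-like cells Ssr3 was at −0.0969 (−0.511 to 0.319). The difference between the signs was not tested across mice, since each genotype is 1 library. Against positive ratios in cDC1-like cells, pDC-like cells had log2 ratios of −0.0470 for Sec61b, −0.0397 for Sec61g, −0.0368 for Sec62, −0.184 for Ssr1, −0.0303 for Ssr2 and −0.0254 for Spcs1. Sec62 was at −0.0713 in resting cDC2-like and at −0.0527 in Wdfy4-high cells. Sec63 was at −0.0505 in mature DC-like cells. The counting interval of each of these ratios held 0, other than that of Sec62 in resting cDC2-like cells.

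The cells outside the comparisons also held signal of the 10 genes. Cells that matched no class (295 WT and 488 H2-Aa cit/cit) had a log2 ratio of 0.57 (0.48 to 0.65) for their sum. Cells under 1000 UMIs (472 and 402) had a log2 ratio of 0.23 (0.03 to 0.42).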

How the results depend on the processing

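No paired analysis was possible because each genotype has a single library. No alternative turned the direction of a value past 1.2-fold. Of the medians and counts over the 10 genes, 96 stayed within their spread or 1.5 times and 8 moved. The median log2 ratio moved over all cells to 0.76 without ribosomal and mitochondrial genes in the total and to 0.61 as a mean over cells. In resting cDC2-like cells it moved to 0.45 with clusters in place of gates and, in alternatives chosen after seeing the data, to 0.48 in the cluster that held most of the class and to 0.48 without the cluster that held no WT cell. In cDC1-like cells it moved to 0.87 with doubled limits and to 0.58 in cells of 5000 to 10000 UMIs, an alternative also chosen after seeing the data. In mature DC-like cells it moved to 0.36 with clusters. The causes were not tested. Of the values of single genes, 443 stayed within their counting interval and 77 did not. Sec63 over all cells (0.26) lay near the limit of 1.2-fold and passed it in 4 of 8 alternatives, and Sec62 in cDC1-like cells passed it in 4 of 11. Spcs1 in resting cDC2-like cells passed it in 1 of 11. The pDC-like class of 104 and 108 cells limits its precision, and Sec61g and Ssr1 had negative ratios there in all 11 alternatives.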
